A study of Mus musculus with 6 samples.

Results

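The 9 genes described here encode 3 receptors of the epidermal growth factor (EGF) receptor family, Egfr, Erbb2 and Erbb3, and 6 of its ligands, Areg, Ereg, Hbegf, Tgfa, Epgn and Btc. They were picked by gene name from the 49671 genes of the deposited expression table, and each name matched 1 row. The cells were LKPR EPCAM+, an epithelial line made from mouse skin squamous cell carcinoma. Their genotype, in control and knock-down cells alike, included Lgr5CreER, p53fl/fl and Rosa26-YFP+/+, alleles with which a Cre driven from Lgr5 can delete p53 and mark cells with YFP. The groups were cells with an empty lentiviral vector (treatment label control), cells with an Ntn1 knock-down and cells with an Unc5b knock-down by lentiviral short hairpins, with 2 libraries each, all from this 1 line. Ntn1 encodes the secreted ligand netrin-1 and Unc5b a netrin receptor. All cells were sorted as living, YFP and EPCAM positive after 6 days of culture, so cells without EPCAM were not measured. The number of hairpins used for each gene is not given in the sources used here. Whether libraries of 1 group stem from different cultures is not stated. The p-values therefore rest on the spread among these 6 libraries, part or all of which may be technical.

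EGF family ligands are made as membrane proteins and are released when metalloproteases of the ADAM family cut them. Areg, Tgfa and Epgn products bind EGFR, and those of Ereg, Hbegf and Btc bind EGFR and ERBB4. ERBB2 has no known ligand and ERBB3 has a weak kinase, and each signals by pairing with another member of the family. Active receptors recruit adaptors that load RAS proteins and start the RAF, MEK and ERK kinase cascade. In skin the family drives keratinocyte growth and wound repair, and Areg, Ereg and Hbegf are transcribed in response to the pathway that their products activate.

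Values are those deposited, scaled by the authors to 20 M per library and rounded, and are called scaled values. The spacing of low values puts the depth at 6.54 to 10.18 M reads per library, and 3 reads then correspond to a scaled value of 5.90 to 9.17. The libraries labelled as knock-downs had less of the targeted gene. Ntn1 was at 1566 and 2588 with the empty vector and at 359 and 431 in its knock-down, and Unc5b was at 1527 and 1573 with the empty vector and at 352 and 419 in its knock-down. After Unc5b knock-down Ntn1 was at 1319 and 771 (limma adjusted p = 0.0638), and after Ntn1 knock-down Unc5b was at 2311 and 2382, 1.51-fold higher than with the empty vector (0.0193). The latter call was lost when Ntn1 knock-down library 1 (0.150) or 2 (0.175) was left out. All 6 epithelial markers checked (Epcam, Cdh1, Krt5, Krt14, Krt8 and Krt18) were present in every library. The summed scaled value of 3 immune markers (Ptprc, Cd3e and Itgam) was 0 to 6. It was 120 to 252 for 5 fibroblast markers, 88 to 223 for 4 endothelial markers and 24 to 61 for 4 melanocyte markers, with Dct at 0 throughout, against 46312 to 61326 for the epithelial markers. Among the endothelial markers, Pecam1 was at 88 to 107 and Kdr and Tek were at 0 to 3 in every library. Cdh5, an endothelial cadherin, was at 86 and 113 after Ntn1 knock-down and at 0 to 2 elsewhere. The part of other cells in the results was not tested.

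Set against the empty vector, the Ntn1 knock-down had higher Areg, Tgfa and Egfr and lower Hbegf, and the Unc5b knock-down had higher Areg and Tgfa. These calls come from a linear model on log2(value + 5) fitted to all 6 libraries with limma, at a Benjamini-Hochberg adjusted p under 0.05 over 15330 genes with a mean scaled value of at least 20. After Ntn1 knock-down 4 of 9 members were called, 3 higher and 1 lower, against 15.1% of all genes tested (8.04% higher and 7.06% lower). After Unc5b knock-down 2 of 9 were called, both higher, against 12.0% of all genes tested (5.90% higher and 6.07% lower). Between the knock-downs 2 of 9 were called, 1 higher and 1 lower after Ntn1 knock-down, against 7.10% (4.15% higher and 2.95% lower). Libraries of the groups compared did not overlap for 7 of 9 members in the first comparison, against 58.2% of all genes tested, for 3 of 9 in the second, against 52.0%, and for 5 of 9 in the last, against 55.6%. The median log2 fold change of the 9 members was 0.74 after Ntn1 and 0.19 after Unc5b knock-down, and that of all genes tested was -0.02 and 0.04. All 9 members passed the filter on low values, although Epgn lay on its limit with a mean of 20, reached only through the Ntn1 knock-down. Both comparisons use the same 2 empty vector libraries, so they are not independent of each other. In RNA from bulk cells, a change in the share of cells that express a gene and a change in RNA per cell cannot be told apart.

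**Figure D1:**
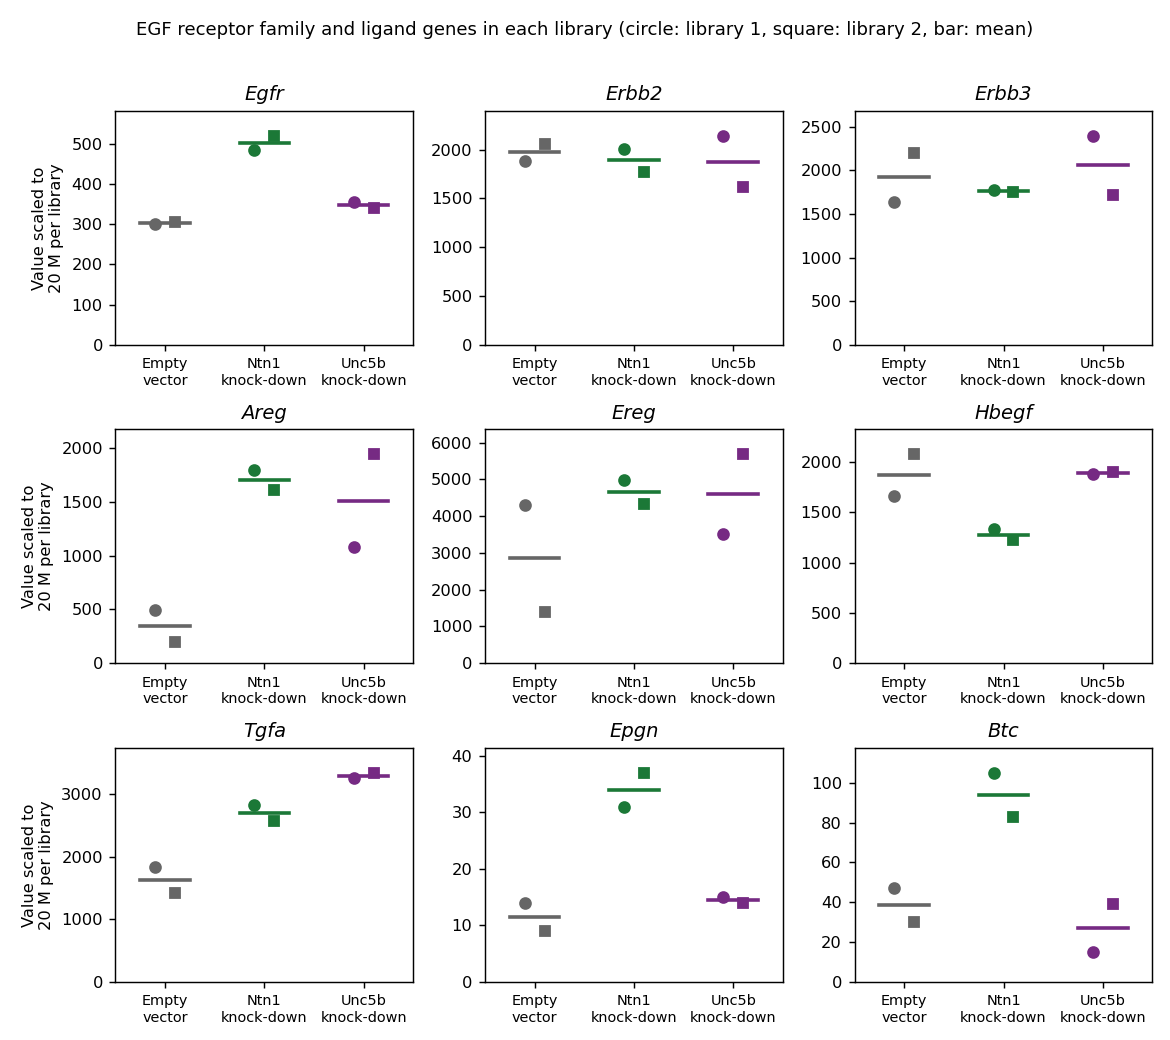
Scaled values of the 9 genes in the 6 libraries, with a vertical axis from 0 for each gene. Circles are libraries 1, squares are libraries 2 and bars are the means of 2. Areg and Tgfa are higher in all 4 knock-down libraries than in either empty vector library, while Erbb2 and Erbb3 overlap between groups.

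Among the receptors only Egfr was called in any comparison. Egfr, the receptor of all 6 ligands, was at 301 and 306 with the empty vector, 485 and 520 after Ntn1 knock-down and 355 and 340 after Unc5b knock-down. The 3 groups did not overlap, and libraries of a group lay within 1.07-fold of each other. Egfr rose 1.66-fold after Ntn1 knock-down (log2 fold change 0.72 ± 0.15 SE, adjusted p = 0.0174). After Unc5b knock-down the difference was 0.19 ± 0.15 (adjusted p = 0.479), with a 95% interval of -0.16 to 0.55. Between the knock-downs it did not pass (0.53 ± 0.15, adjusted p = 0.0825), so the order of Egfr levels places Unc5b between empty vector and Ntn1 knock-down without separating it from either. The rise after Ntn1 knock-down was no longer called when Ntn1 knock-down library 1 (adjusted p = 0.116) or 2 (0.161) was left out.

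Erbb2, the receptor that acts as a shared partner, was at 1885 and 2060 with the empty vector, 2007 and 1774 after Ntn1 knock-down and 2139 and 1614 after Unc5b knock-down. The groups overlapped, and the 95% interval of the log2 fold change was -0.42 to 0.29 after Ntn1 and -0.44 to 0.27 after Unc5b knock-down. Erbb3, which signals to PI3-kinase when paired with ERBB2, was at 1637 and 2202, 1776 and 1755, and 2394 and 1719 in the same order. Its groups overlapped too, and neither comparison with the empty vector passed (adjusted p = 0.754 for Ntn1 and 0.799 for Unc5b). The 95% interval of its log2 fold change was -0.54 to 0.33 after Ntn1 and -0.34 to 0.53 after Unc5b knock-down. To compare genes, values were divided by the joined length of all annotated exons of a gene, whichever transcripts were expressed. Comparisons between genes on this scale are therefore approximate. Per kilobase of exon, the empty vector level was 379 ± 23.8 (SD, n = 2) for Erbb2, 319 ± 66.4 for Erbb3 and 26.8 ± 0.312 for Egfr. Egfr thus had the lowest level per kilobase of the 3 receptors in every library, and its empty vector level stood at percentile 17.2 of all tested genes, against 78.2 for Erbb2 and 74.2 for Erbb3. On this scale Egfr made up 3.43% to 4.02% of the summed receptor level with the empty vector, 5.92% and 6.77% after Ntn1 knock-down and 3.73% and 4.80% after Unc5b knock-down.

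Areg, which encodes amphiregulin, a keratinocyte growth factor, had the largest fold difference of the 9 members in both comparisons with the empty vector. It was at 499 and 197 with the empty vector, 1798 and 1605 after Ntn1 knock-down and 1084 and 1939 after Unc5b knock-down. The knock-down libraries all lay above the empty vector libraries, which differed 2.53-fold between themselves. Areg rose 4.89-fold after Ntn1 knock-down (log2 fold change 2.42 ± 0.40, adjusted p = 0.00599) and 4.34-fold after Unc5b knock-down (2.19 ± 0.40, adjusted p = 0.0112). The knock-downs overlapped, with a difference of 0.23 and a 95% interval of -0.70 to 1.15. Set against the higher empty vector library alone, the log2 fold change was 1.76 for Ntn1 (adjusted p = 0.00485) and 1.53 for Unc5b (0.0119), and against the lower one it was 3.08 and 2.85. Leaving out Ntn1 knock-down library 1 (adjusted p = 0.0759) or 2 (0.0623) ended the Ntn1 call, and leaving out Unc5b knock-down library 2 (0.0937) ended the Unc5b call. With no filter on low values neither call passed (adjusted p = 0.0567 and 0.0882), and without the variance trend of the model the Unc5b call did not (0.0581).

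Tgfa, which encodes transforming growth factor alpha, an autocrine ligand of keratinocytes, was at 1832 and 1422 with the empty vector, 2834 and 2566 after Ntn1 knock-down and 3255 and 3338 after Unc5b knock-down. All 3 groups were apart, with the Unc5b knock-down highest. It rose 1.66-fold after Ntn1 knock-down (log2 fold change 0.74 ± 0.14, adjusted p = 0.0105) and 2.03-fold after Unc5b knock-down (1.03 ± 0.14, adjusted p = 0.00319). The difference between the knock-downs was -0.29 ± 0.14 and did not pass (adjusted p = 0.270). The Unc5b call held under all 14 alternative settings, with an adjusted p of at most 0.0332. The Ntn1 call was lost under 4 of them: without Ntn1 knock-down library 1 (0.131) or 2 (0.0818), when all genes were kept (0.0518) and when the model had no variance trend (0.0556).

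The 250 bases before the RefSeq start (GRCm38.p6) are shown for Areg and Tgfa, which were called in both knock-downs, and for Egfr, called after Ntn1 knock-down. Capitals mark matches, on either strand, to the cyclic AMP response element TGACGTCA, the AP-1 site TGANTCA, the GC box GGGCGG and the TATA box TATAAA, and no capitals overlap. Promoters of 6 of the 9 members were searched for these matches. Of the members searched but not shown, none called against the empty vector, Epgn held TATAAA starting 86 bases before its start. Erbb2 and Btc held no match.
Areg, chr5:91139349-91139598 (plus strand): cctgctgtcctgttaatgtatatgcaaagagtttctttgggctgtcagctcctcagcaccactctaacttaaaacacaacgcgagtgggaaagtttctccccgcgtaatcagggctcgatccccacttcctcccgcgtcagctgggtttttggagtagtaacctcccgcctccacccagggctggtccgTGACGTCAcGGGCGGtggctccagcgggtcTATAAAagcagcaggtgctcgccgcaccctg
Tgfa, chr6:86194972-86195221 (plus strand): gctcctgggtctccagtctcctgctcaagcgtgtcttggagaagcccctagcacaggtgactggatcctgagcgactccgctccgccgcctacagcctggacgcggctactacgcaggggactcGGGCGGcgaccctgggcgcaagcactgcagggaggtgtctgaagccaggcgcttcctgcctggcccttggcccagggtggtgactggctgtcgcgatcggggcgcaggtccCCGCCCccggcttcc
Egfr, chr11:16751953-16752202 (plus strand): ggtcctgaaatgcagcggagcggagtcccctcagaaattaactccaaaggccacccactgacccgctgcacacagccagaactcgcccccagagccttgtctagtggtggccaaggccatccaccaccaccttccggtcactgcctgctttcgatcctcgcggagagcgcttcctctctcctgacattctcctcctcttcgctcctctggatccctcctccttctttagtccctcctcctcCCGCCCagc
Areg holds TGACGTCA starting 61 bases before its start, GGGCGG at 52 and TATAAA at 31. Tgfa holds a GC box at 126 and another, on the other strand, at 15, and Egfr holds a GC box on the other strand at 9. Of 32851 mouse promoters of this length, 1.55% hold TGACGTCA, 32.7% GGGCGG, 12.4% TATAAA and 6.75% TGANTCA. These matches describe the letters only, and no binding was measured.

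Hbegf, which encodes heparin-binding EGF-like growth factor, was the member that fell. It was at 1667 and 2076 with the empty vector, 1332 and 1226 after Ntn1 knock-down and 1877 and 1902 after Unc5b knock-down. The Ntn1 knock-down libraries lay below all other libraries, and the Unc5b knock-down lay within the range of the empty vector. Hbegf fell by 0.54 ± 0.14 on the log2 scale after Ntn1 knock-down (1.46-fold lower, adjusted p = 0.0326). It was 1.48-fold lower after Ntn1 than after Unc5b knock-down (log2 fold change -0.56 ± 0.14, adjusted p = 0.0466). The Unc5b knock-down differed from the empty vector by 0.02, with a 95% interval of -0.29 to 0.34. Each of the 2 calls was lost under 9 of 14 alternative settings. The call against the empty vector was lost without empty vector library 2 (adjusted p = 0.102), Ntn1 knock-down library 1 (0.156) or 2 (0.240), or Unc5b knock-down library 1 (0.0545) or 2 (0.0552). The call against the Unc5b knock-down was lost without Ntn1 knock-down library 1 (0.249) or 2 (0.317), without Unc5b knock-down library 1 (0.163) or 2 (0.190), and with TMM (0.0613) or median-of-ratios scaling (0.0638).

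Ereg, which encodes epiregulin, had the highest mean scaled value of the 9 members in every group but did not pass in any comparison. It was at 4304 and 1399 with the empty vector, 4974 and 4330 after Ntn1 knock-down and 3503 and 5677 after Unc5b knock-down. The empty vector libraries were 3.08-fold apart, and empty vector library 1 lay within the range of the Unc5b knock-down. The log2 fold change was 0.92 ± 0.45 for Ntn1 (adjusted p = 0.209) and 0.86 ± 0.45 for Unc5b (0.260), with 95% intervals of -0.10 to 1.94 and -0.16 to 1.88. The empty vector libraries decide this value. Without library 1 it was 1.73 (adjusted p = 0.00218) for Ntn1 and 1.67 (0.00298) for Unc5b, and without library 2 it was 0.11 (0.819) and 0.05 (0.925). Ereg shares 141 exon bases with an antisense gene, Gm42532 in the table, which was at 318 and 85 with the empty vector, 364 and 367 after Ntn1 knock-down and 246 and 489 after Unc5b knock-down. The antisense gene was thus lowest where Ereg was lowest, and because the strand setting of the counting is not given, reads of the shared bases cannot be told apart.

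Epgn and Btc, which encode epigen and betacellulin, were near the lower end of what was measured. Epgn was at 14 and 9 with the empty vector, 31 and 37 after Ntn1 knock-down and 15 and 14 after Unc5b knock-down, which is about 4 to 13 reads per library. The Ntn1 knock-down libraries were above the rest, but the log2 fold change of 1.25 ± 0.38 did not pass (adjusted p = 0.0633). Btc was at 47 and 30 with the empty vector, 105 and 83 after Ntn1 knock-down and 15 and 39 after Unc5b knock-down, about 7 to 44 reads. Again the Ntn1 knock-down libraries were highest, with 1.21 ± 0.43 against the empty vector (adjusted p = 0.100). Against the Unc5b knock-down Btc was 3.48-fold higher (log2 fold change 1.73 ± 0.43), with an adjusted p of 0.04996, just inside the threshold. That call was lost under 7 of 14 alternative settings, among them leaving out Ntn1 knock-down library 1 (0.310) or 2 (0.225) or Unc5b knock-down library 1 (0.204).

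**Figure D2:**
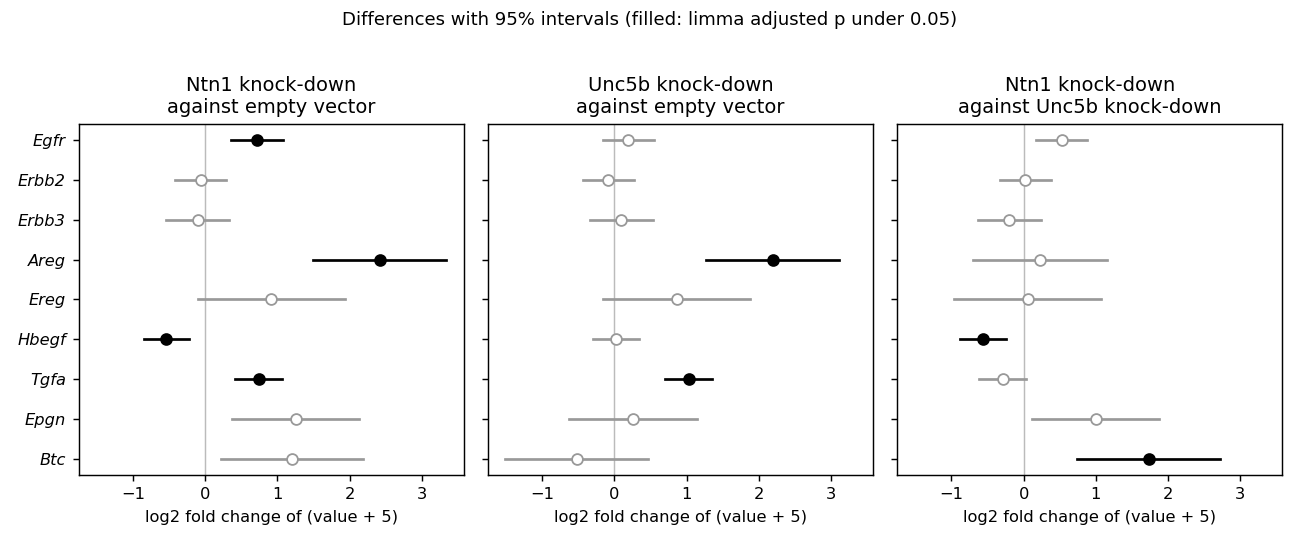
Log2 fold changes of (value + 5) for the 9 genes in 3 comparisons, with 95% intervals, filled where the limma adjusted p was under 0.05. Areg has the largest fold change against the empty vector, 2.42 and 2.19, and Hbegf is the filled point below 0 in the first and last panel.

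Scaled per kilobase of exon, the make-up of the 6 ligand genes changed mainly in its Areg share. Areg was 19.6% and 14.0% of the summed ligand level with the empty vector, 43.1% and 43.2% after Ntn1 knock-down and 33.8% and 41.0% after Unc5b knock-down. Hbegf was 16.4% and 37.0% with the empty vector, 8.02% and 8.29% after Ntn1 knock-down and 14.7% and 10.1% after Unc5b knock-down. Every knock-down library thus had a larger Areg share and a smaller Hbegf share than either empty vector library. Ereg took 29.2% to 49.7% and Tgfa 12.7% to 19.0% of the sum over the 6 libraries, while Epgn and Btc each stayed under 1%. Because these are shares of a sum, a higher Areg share lowers the others. No test was made on them.

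Within each group, Areg and Ereg were lower in the same library, though in another proportion in each group. Among the empty vector libraries both were lower in library 2, and among the Unc5b knock-down libraries both were lower in library 1. This order of libraries was not particular to Areg and Ereg. Tgfa, on chromosome 6, and the marker Krt14 had the same order in every group, while Hbegf and Egfr did not. Across all genes tested, deviations of same-numbered empty vector and Unc5b knock-down libraries correlated at -0.45. The ratio of Areg to Ereg per kilobase varied less within a group than either gene, at 0.394 and 0.478 with the empty vector, 1.23 and 1.26 after Ntn1 knock-down and 1.05 and 1.16 after Unc5b knock-down. The ratio of Hbegf to Tgfa per kilobase was 1.22 and 1.96, 0.631 and 0.641, and 0.774 and 0.765 in the same order. Both ratios were chosen after their values were seen and are given without a test.

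**Figure D3:**
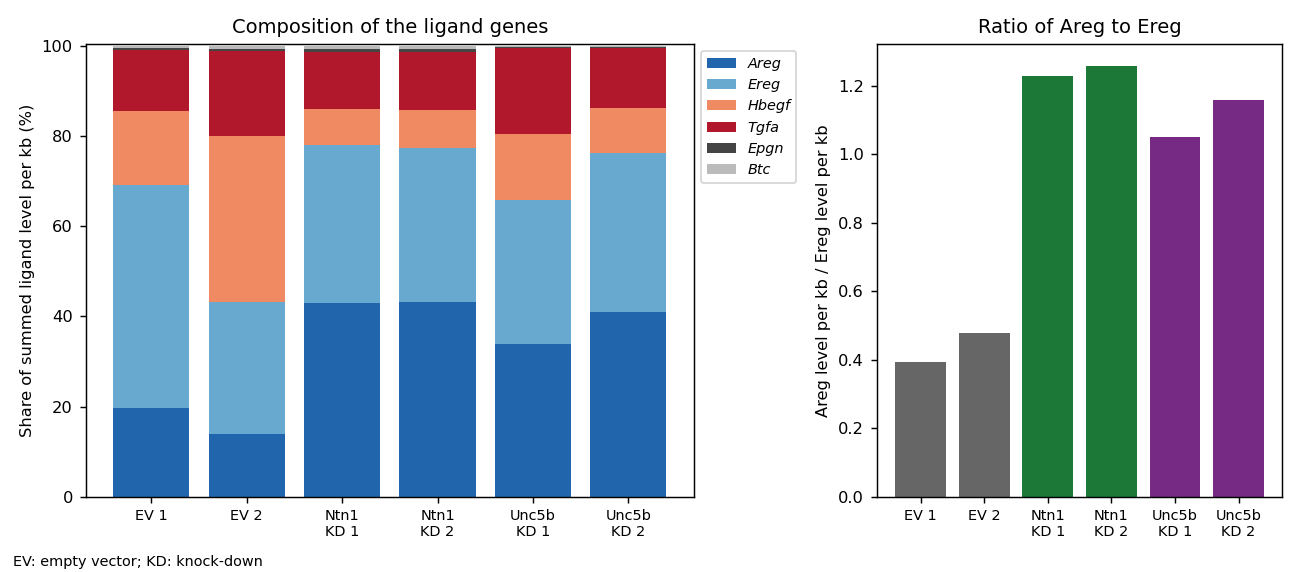
Left, share of each ligand gene in the summed ligand level per kilobase of exon, in percent, for each library. Right, ratio of Areg to Ereg per kilobase, which is 0.394 and 0.478 with the empty vector and 1.05 to 1.26 in the 4 knock-down libraries.

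Areg and Ereg are neighbours in the genome. On GRCm38 chromosome 5, Epgn (91027464 to 91035215), Ereg (91074622 to 91093646) and Areg (91139599 to 91148432) lie on the plus strand and Btc (91357261 to 91402994) on the minus strand. The gap between Ereg and Areg is 46.0 kb, that between Epgn and Ereg 39.4 kb and that between Areg and Btc 209 kb. Of these 4 neighbours, Areg was called in both knock-downs, and the others were not called against the empty vector in either. Tgfa lies on chromosome 6 (86195223 to 86275719), Hbegf on chromosome 18 (36504927 to 36515805), Egfr on chromosome 11 (16752203 to 16918158), Erbb2 also on chromosome 11 (98412470 to 98437716) and Erbb3 on chromosome 10 (128567523 to 128589652). Exons of Tgfa overlap those of Gm43917 by 118 bases and exons of Erbb2 overlap those of Mien1 by 9 bases, on the opposite strand in both cases.

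The rest of the family was low or did not pass. Erbb4, the remaining receptor, was at 0 in all 6 libraries, which allows scaled values of up to 5.90 to 9.17. Of the ligand genes outside the 9, Nrg3 was at 0 in all libraries, Nrg2 was at 0 to 23 and below the filter, and Egf was at 7 to 28. Nrg1, which encodes a ligand of ERBB3, was at 869 and 370 with the empty vector, 509 and 529 after Ntn1 knock-down and 447 and 519 after Unc5b knock-down. Neither comparison of Nrg1 with the empty vector passed (adjusted p = 0.834 and 0.709), and the direction turned with the empty vector library that was left out. Without library 2 the log2 fold change was -0.74 (adjusted p = 0.0284) and -0.84 (0.0201), and without library 1 it was 0.48 and 0.38. Nrg4 was at 342 and 361, 264 and 300, and 289 and 343 in the same order and did not pass (adjusted p = 0.276 and 0.630).

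Genes for ligand shedding and receptor trafficking held the highest share of calls among the 5 pathway lists after Ntn1 knock-down. Of 14 such genes, 7 rose and 1 fell after Ntn1 knock-down (57.1% called against 15.1% of all genes tested, median log2 fold change 0.42). After Unc5b knock-down 4 rose and 2 fell (42.9% against 12.0%, median 0.22). The lists were chosen with earlier results of these data known, and these shares were not tested. This list mixes proteases with their partners and inhibitors, and not all of its called genes are named. The counts and medians therefore give no direction for ligand release, which was not measured. Timp3, which encodes an inhibitor of ADAM proteases including the ligand sheddase ADAM17, was at 12061 and 17275 with the empty vector, 3819 and 3495 after Ntn1 knock-down and 1605 and 1936 after Unc5b knock-down. The groups were well apart, and Timp3 was 4.01-fold lower (adjusted p = 0.000395) and 8.28-fold lower (0.000161). Its exons overlap those of Syn3 by 1733 bases on the opposite strand. Nkd2, which encodes a protein that escorts TGF-alpha to the cell surface, was at 79 and 48 with the empty vector, 264 and 330 after Ntn1 knock-down and 199 and 185 after Unc5b knock-down. It rose 4.68-fold (adjusted p = 0.00161) and 3.02-fold (0.00846).

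Among the proteases themselves, Adam19 was at 4 and 5 with the empty vector, 74 and 116 after Ntn1 knock-down and 0 in both Unc5b knock-down libraries. It passed the filter only through the Ntn1 knock-down, so it had to differ, and it is 1 of the 7 counted as higher. The empty vector values are under 3 reads, so no fold is given, and 2 antisense genes overlap its exons. Adam8 rose 2.0-fold after Unc5b knock-down (adjusted p = 0.0339), and Adam9 was 1.86-fold lower there (0.0093). Adam8 was also called after Ntn1 knock-down, 2.15-fold higher (adjusted p = 0.0189). Adam9 was 1.46-fold lower after Ntn1 knock-down but did not pass (0.0566). The main sheddase genes of the family, with Rhbdf2, were picked out after their values were seen. Adam17 was at 1788 and 1683 with the empty vector, 2368 and 2189 after Ntn1 knock-down and 2370 and 2191 after Unc5b knock-down, and missed the threshold (adjusted p = 0.0541 and 0.0614). Adam10 ranged from 6594 to 7442 over all libraries and did not pass either. Rhbdf2, which encodes iRhom2, a partner of ADAM17, rose 1.65-fold after Ntn1 knock-down (adjusted p = 0.00919), a call that was lost without Ntn1 knock-down library 1 (0.0935) or 2 (0.113). After Unc5b knock-down it was at 1.35-fold (0.0722), and at 0.0114 without empty vector library 1.

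Brakes on the receptors were called at a rate near that of all genes. Of 20 such genes 19 were tested, with 2 higher and 2 lower after Ntn1 knock-down (21.1% against 15.1% of all genes tested). After Unc5b knock-down 1 was higher and 1 lower (10.5% against 12.0%). Lrig1, a membrane protein that promotes receptor breakdown, was at 4705 and 4861 with the empty vector and 7999 and 7431 after Ntn1 knock-down, and rose 1.61-fold (adjusted p = 0.00536). Cbl, a ubiquitin ligase for active EGFR, rose 1.41-fold (0.0227). Errfi1, which encodes the EGFR kinase inhibitor MIG6, was at 8462 and 9681 with the empty vector and 6498 and 6079 after Ntn1 knock-down, 1.44-fold lower (0.0331), and Lrrk1 was 1.31-fold lower (0.0383). After Unc5b knock-down Ptpn2, a phosphatase gene, rose 1.55-fold (adjusted p = 0.0261) and Usp8, which encodes a deubiquitinase of endosomes, was 1.33-fold lower (0.041). Whether lower Usp8 weakens or strengthens the braking of the receptors was not tested.

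Among adaptors and the RAS-ERK cascade, all 30 genes were tested, with 3 higher and 3 lower after Ntn1 knock-down and 4 higher and 2 lower after Unc5b knock-down. That is 20% in each, near the 15.1% and 12.0% of all genes tested. The adaptor genes Gab1 and Gab2 went opposite ways. Gab2 was at 140 and 151 with the empty vector, 713 and 660 after Ntn1 knock-down and 267 and 301 after Unc5b knock-down, and rose 4.72-fold (adjusted p = 0.000257) and 1.95-fold (0.0107). Gab1 was at 709 and 967, 264 and 327, and 489 and 313 in the same order, and was 2.84-fold (0.00628) and 2.09-fold lower (0.028). Rasa1, which encodes a RAS GTPase activating protein, rose 1.65-fold after Ntn1 knock-down (0.00334), and Pik3cb, a PI3-kinase subunit gene, was 1.69-fold (0.00571) and 1.44-fold lower (0.0293). Akt1 rose 1.60-fold after Unc5b knock-down (0.0257).

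Genes known to respond to ERK also split. Of 24, 5 rose and 3 fell after Ntn1 knock-down (33.3% called against 15.1%) and 5 rose and 4 fell after Unc5b knock-down (37.5% against 12.0%), with medians of 0.21 and 0.20. Spry1, a feedback inhibitor gene, was at 415 and 1562 with the empty vector, 121 and 183 after Ntn1 knock-down and 147 and 65 after Unc5b knock-down. It was 6.50-fold (adjusted p = 0.0284) and 9.33-fold lower (0.0144), and its exons overlap those of Gm42922 on the opposite strand. Spry4, another feedback inhibitor gene, rose 2.99-fold after Ntn1 knock-down (0.00638), from 61 and 73 to 202 and 199, and was at 130 and 90 after Unc5b knock-down (0.144). Fos, the immediate early gene, was 2.63-fold lower after Ntn1 knock-down (0.00182). Il1rl1, which encodes the interleukin-33 receptor, was at 24 and 9 with the empty vector, 152 and 162 after Ntn1 knock-down and 79 and 130 after Unc5b knock-down. Its empty vector mean of 16.5 is under the filter, so it was tested only through the knock-downs, and it is 1 of the 5 counted as higher in each. After Unc5b knock-down Spred3 rose 2.16-fold (0.028) and the ephrin receptor gene Epha4 was 2.81-fold lower (0.00371). Both were also called after Ntn1 knock-down, Spred3 2.48-fold higher (0.0122) and Epha4 2.01-fold lower (0.0168).

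Of 15 calls of named pathway genes after Ntn1 knock-down, 9 were lost when Ntn1 knock-down library 1 was left out and 8 when library 2 was. Of 14 after Unc5b knock-down, 12 were lost when Unc5b knock-down library 2 was left out and 6 when library 1 was. With no filter 4 of 15 and 11 of 14 were lost, without the variance trend 4 of 15 and 9 of 14, and with only the 4 libraries compared 1 of 15 and 7 of 14. No direction changed in either set. Each set holds only the called genes named for the largest rises and falls in that comparison. Exons of Adam17, Adam8, Lrig1, Rasa1, Gab1, Spred3, Egf, Nrg1 and Nrg4 overlap exons of another gene on the opposite strand. Without empty vector library 2, which had the lower Areg and Ereg, 3 of 15 and 6 of 14 were lost, Spry1 after Ntn1 knock-down among them (adjusted p = 0.0688).

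**Figure D4:**
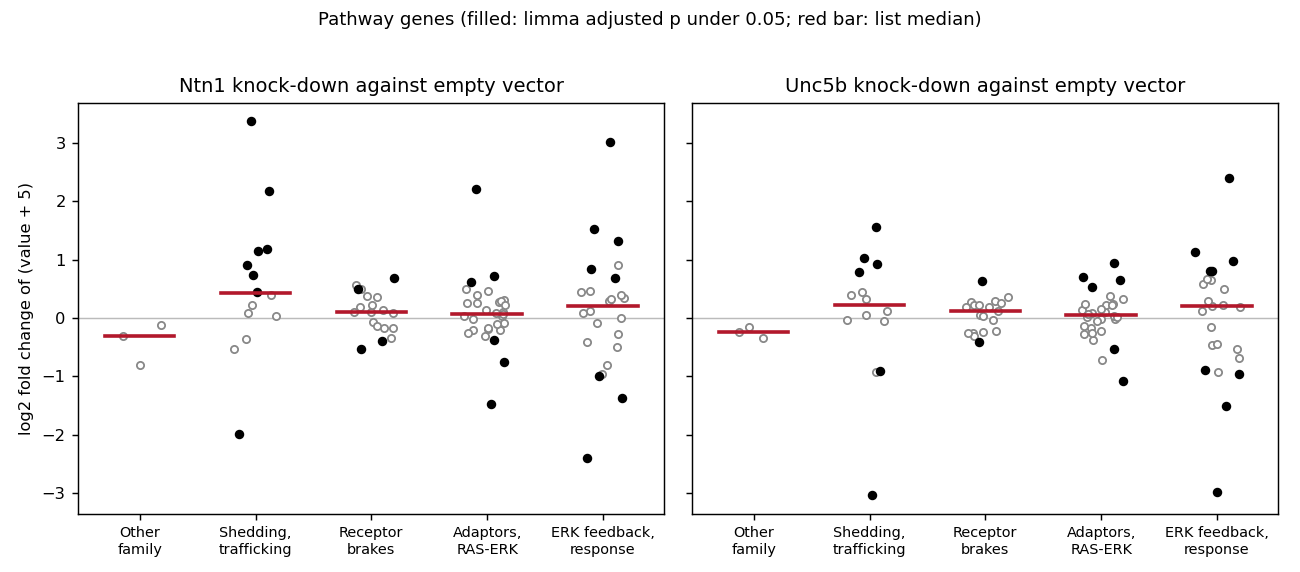
Log2 fold changes of (value + 5) of the tested genes of 5 pathway lists in each knock-down against the empty vector, filled where the limma adjusted p was under 0.05, with red bars at list medians. The medians of the shedding and trafficking list are 0.42 and 0.22.

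Of the 9 members, Areg, Tgfa, Egfr and Hbegf passed the test over all 3 groups at once (adjusted p = 0.00752, 0.00436, 0.0288 and 0.0322). For each the 2 most similar genes were taken by Pearson's r of log2(value + 5) over the 6 libraries. For Areg these were Oaf (r = 0.999) and Fbxl19 (0.998), and Oaf was at 234 and 103 with the empty vector, 766 and 654 after Ntn1 knock-down and 468 and 734 after Unc5b knock-down. For Tgfa they were Klhl8 (0.9995) and the gelatinase gene Mmp9 (0.997), and for Egfr Slco4a1 (0.998) and the RAS-ERK scaffold gene Ksr1 (0.996). Slco4a1 was at 0 and 0 with the empty vector, 183 and 260 after Ntn1 knock-down and 9 and 5 after Unc5b knock-down. It thus passed the filter only through the Ntn1 knock-down. For Hbegf the most similar genes were Asxl1 (0.995) and Gm10069 (0.994). With 6 libraries in 3 groups such values are common: 278 genes had r above 0.95 with Areg, 223 with Tgfa, 184 with Egfr and 130 with Hbegf.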

How the data were processed

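RNA was sequenced from 6 libraries, extracted with a column kit and prepared with the Ovation Solo system, per the labels' protocols. The deposited values are a score: whole numbers with totals near 20 M in every library, scaled and rounded by the authors, so no count model was fitted. STAR, Picard, HTSeq and the GRCm38 (mm10) build are listed, without versions of the tools, per the submitters' processing notes. The sources used here give no annotation, strand setting, handling of duplicate reads or formula of the scaling. Of 49671 genes, 49412 identifiers matched GENCODE M21, which gave positions and exon lengths. Promoter sequences are from RefSeq (GRCm38.p6).

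Groups came from the sample titles. What 1 read is worth was estimated as the largest step whose rounded multiples hold nearly all values up to 150 (99.77% to 100% in each library, tolerance 0.5), and floors of 3 reads cover counting error only. Genes with a mean of at least 20 (15330) were analysed on log2(value + 5), which understates changes of low genes, whereas folds are ratios of group means as deposited. A model of 3 groups was fitted with limma 3.58.1 (R 4.3.3) with a variance trend, 3 residual and 5.33 prior degrees of freedom, tests 2-sided, Benjamini-Hochberg adjustment within each comparison. TMM factors were computed from their published formula. The fit was tested on simulated data. With 2 libraries against 2, the smallest p of an exact permutation test is 0.333, so none was used.

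The members, the pathway lists and the tests were chosen with earlier results of these data known. All 9 members are named. From each pathway list up to 2 called genes with the largest rise and up to 2 with the largest fall are named in each comparison with the empty vector. For members that passed the test over 3 groups the 2 most similar genes are named. Alternatives were other pseudocounts, no filter, TMM or median-of-ratios scaling, no variance trend, only the 4 libraries compared, the replicate number as a block and leaving out each library. Sequence of Hbegf, 1 allele of the genotype and 1 marker gene are not reported here.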

Additional observations from a re-analysis of the deposited data

How the results depend on the processing

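No member changed direction with a call under any of the 14 alternative settings. Of 378 refits of a member in a comparison, 337 stayed on their side of the threshold, 38 lost a call and 3 gained one (Ereg in 2, Epgn in 1). With no filter, which tests 28618 genes, the calls fell to 1289 genes and 1 member for the Ntn1 knock-down, 791 and 1 for the Unc5b knock-down, and 302 and 0 between the knock-downs. Without the variance trend 1462 genes were called for Ntn1, 1115 genes and 1 member for Unc5b, and 454 genes and 0 members between the knock-downs. With only the 4 libraries compared, 950 genes were called for Unc5b and 1856 between the knock-downs. Between the knock-downs 1 member was called with a pseudocount of 1, with TMM and with median-of-ratios scaling. Leaving out 1 library at a time gave 507 to 2769 genes and 0 to 5 members for Ntn1, 680 to 2428 genes and 1 to 3 members for Unc5b, and 34 to 1842 genes and 0 to 2 members between the knock-downs. A lone library is then assumed to vary like the other groups. Some settings also changed the number of genes tested or of libraries, and the cause of the differences in calls was not tested.

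Whether the replicate numbers pair the libraries is not stated. Deviations of same-numbered libraries correlated across genes at 0.16 (empty vector and Ntn1), -0.45 (empty vector and Unc5b) and -0.169 (Ntn1 and Unc5b). With 2 libraries per group these values cannot decide it. With the replicate block 1465 genes and 2 members were called for Ntn1, 1102 genes for Unc5b with 2 members, and 459 genes and 0 members between the knock-downs. The members no longer called under the block were Egfr (adjusted p = 0.0517) and Hbegf (0.0776) for Ntn1, and Hbegf (0.110) and Btc (0.110) between the knock-downs; it ended the calls of 4 of 15 named pathway genes for Ntn1 and 7 of 14 for Unc5b. Depth limits genes of few reads, Epgn and Btc among the members.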

Other observations

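The summed level of the 6 ligand genes per kilobase of exon was 2099 and 1161 with the empty vector, 3437 and 3058 after Ntn1 knock-down and 2642 and 3895 after Unc5b knock-down. The summed level of the 3 receptor genes on the same scale was 660.5 and 788.4, 723.3 and 678.1, and 839.8 and 625.5 in the same order. The ratio of ligand to receptor level was 3.18 and 1.47 with the empty vector, 4.75 and 4.51 after Ntn1 knock-down and 3.15 and 6.23 after Unc5b knock-down, so the Unc5b knock-down overlapped the empty vector and the Ntn1 knock-down did not. These sums were chosen after the values were seen, and no test was made on them.

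Within the chromosome 5 span from Epgn to Btc (375.5 kb), the table lists 3 more genes. The antisense gene Gm42532 is described with Ereg, the non-coding gene Gm19619 was at 5 to 32 and the small nuclear RNA gene Gm23092 at 0 to 2.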
